A study of Homo sapiens with 6 samples.

Results

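RNA immunoprecipitation and sequencing (RIP-seq) lists the stretches of the genome from which RNA was recovered with an antibody. The regions described here are the peaks of at least 10 kb in 3 peak lists, called separately on 3 immunoprecipitates made with an anti-RBM8A antibody. They were chosen by their width in the lists and number 458 of the 5437 deposited peaks, or 8.42%. Replicate 1 held 149 of its 1480 peaks, replicate 2 held 159 of 2155 and replicate 3 held 150 of 1802. Peaks on chromosomes X and Y, on the scaffold chrUn_gl000220 and over 5 loci were set aside, which left out 17, 16 and 13 wide peaks. All samples were AGS, an established human gastric adenocarcinoma cell line, labelled wild type, untreated and of the same batch. The series has 3 immunoprecipitates and 3 inputs; the inputs were not analysed here, and no immunoprecipitate with a control antibody is among the samples. RNA bound by RBM8A therefore cannot be told apart from RNA held in another way. Nothing in the labels states that the replicates came from different cultures, so their spread may be technical.

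RBM8A, also known as Y14, belongs to the core of the exon junction complex. Splicing machinery places this complex on RNA a short distance upstream of a junction of exons, where it marks the RNA for export, translation and quality control. Some introns of human genes are longer than 10 kb, whereas most exons are far shorter. A peak list gives a start, an end and a summit, but not the coverage in between. Whether reads cover a wide peak throughout, or lie at its ends with the space between them counted, was not tested. Positions are hg19 coordinates counted from 1, without strand. No hg19 annotation or sequence was used, so loci are named by position, and no gene, exon, intron or paralogous sequence was assigned to a peak.

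Wide peaks were few, alike in number and alike in size in the 3 lists. Their mean number was 152.7 ± 5.51 (SD, n = 3), while the lists themselves ranged from 1480 to 2155 peaks. They made up 10.1%, 7.38% and 8.32% of replicates 1, 2 and 3. The median width was 18241, 18209 and 18623 bp, and the widest peak of each list measured 460298, 460170 and 455712 bp. Of the 458 peaks, 256 were 10 to 20 kb wide, 135 were 20 to 50 kb, 30 were 50 to 100 kb and 37 were at least 100 kb. Width is what chose these peaks, so these values are a description. The narrowest members measured 10001, 10076 and 10162 bp, and the widest peaks under the cutoff 9976, 9991 and 9869 bp, so the cutoff falls within a continuous range of widths.

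Wide peaks were overlapped in both other lists by a peak of any width in 62 of 149, 59 of 159 and 61 of 150 cases. That is 41.6%, 37.1% and 40.7%, against a background over all peaks of the same lists of 32.4%, 22.2% and 26.5%. Peaks of 1 to 10 kb met this rule in 35.1%, 26.9% and 28.5% of cases, lower than the wide peaks in each list. A wider peak meets another more easily, and all 3 lists chose the members, so this difference was not tested. With 3 lists, an exact sign permutation test could not give a two-sided p below 0.25 in any case. A wide peak in both other lists was met by 42, 41 and 42 wide peaks, a mean of 27.3% ± 1.34 (SD, n = 3), against 3.51%, 2.55% and 3.16% of all peaks. A place shared by all 3 lists counts in each of them, so the counts are tied to each other. The SD of such a share is therefore not a spread of independent replicates.

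Recurrence was highest among peaks of 100 kb or more. The mean share overlapped in both other lists by a peak of any width was 33.7% ± 3.22 (SD, n = 3) at 10 to 20 kb, 41.6% ± 5.25 at 20 to 50 kb, 36.6% ± 3.34 at 50 to 100 kb and 79.3% ± 10.4 at 100 kb or more. In the highest class replicates 1 and 2 gave 69.2% and 78.6% of 13 and 14 peaks, and replicate 3 gave 9 of 10. Each was above every value of the lower classes. Overlap by a wide peak in both other lists was 16.8% ± 0.112 at 10 to 20 kb, 32.0% ± 3.80 at 20 to 50 kb and 32.9% ± 9.39 at 50 to 100 kb, so by that measure the narrowest class recurred least. For all these classes the lists share their overlaps, so the SDs are not over independent values. The 37 peaks of the class of 100 kb or more lie at only 17 loci. Without the locus with most of them, 25 of the remaining 33 were overlapped in both other lists.

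**Figure D1:**
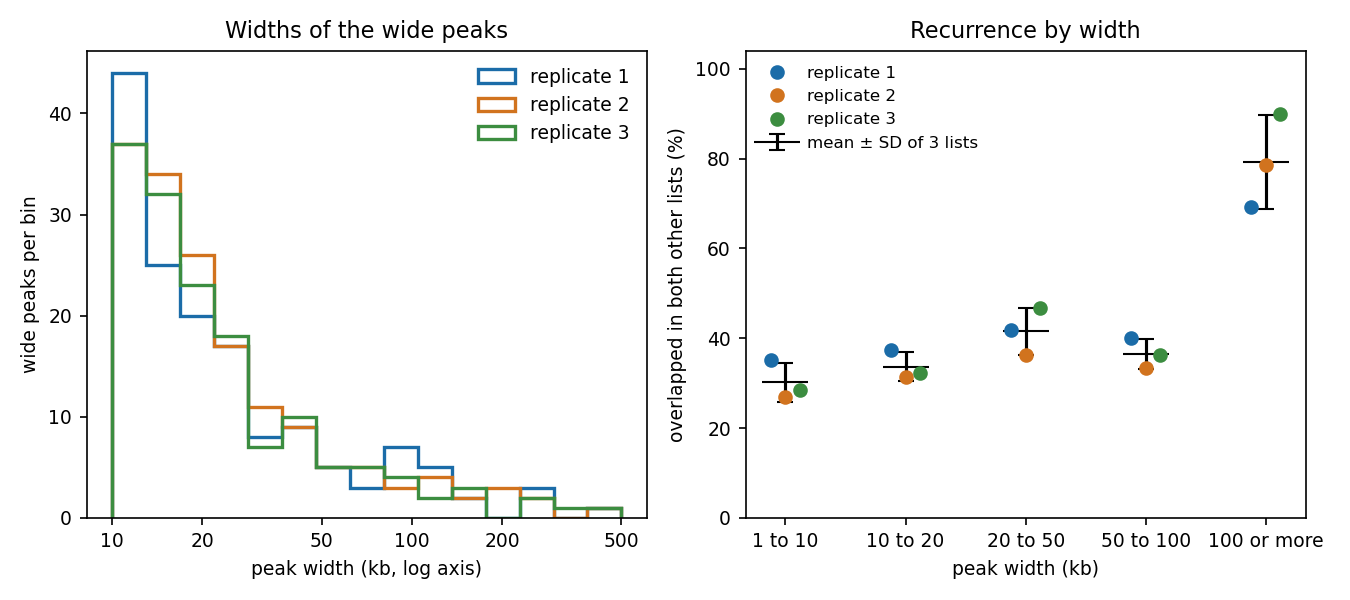
Left, number of wide peaks per bin of width (kb, log axis) in each list; right, percent of peaks of each width class overlapped by at least 1 bp in both other lists, with 1 point per list and the mean ± SD of 3 lists. The 3 width distributions lie close together, and peaks of 100 kb or more recurred more often than narrower ones in each list. Shared overlaps count in each list, so the SD is not over independent values.

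Joined wherever they overlapped, the 458 peaks formed 309 loci. A wide peak was present in all 3 lists at 37 loci, in 2 lists at 53 (17.2%) and in 1 list at 219 (70.9%). Without replicate 1, 2 or 3, the remaining pair of lists shared 53, 55 and 58 loci. Each of the 37 loci had at least 1 base within the outer limits of all 3 lists. Of these loci, 28 held a single wide peak in every list, and 9 were divided into several wide peaks in at least 1 list.

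In base pairs, the ends of wide peaks agreed between lists no more closely than those of narrower peaks. Over the 3 pairs of lists there were 166 pairs of wide peaks that were each other's largest overlap. Both ends lay within 100 bp of each other in 33 of them, 1 end in 59 and neither in 74. By pair of lists, both ends agreed in 27.6% for replicates 1 and 2, 14.5% for 1 and 3 and 17.0% for 2 and 3, against 24.4%, 25.7% and 21.1% of all overlapping pairs of peaks. For peaks of 1 to 10 kb the mean was 25.8% ± 3.46 (SD over 3 pairs of lists, which share lists), against 19.7% ± 6.93 for wide peaks, and the ranges overlapped. Both ends lay within 1000 bp in 93 of the 166 wide pairs, a mean of 55.7% ± 12.1, against 70.0% ± 3.63 of pairs of 1 to 10 kb.

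Relative to their size, the distances between ends were smaller in wide peaks. The median start distance was 201, 197 and 214 bp and the median end distance 169, 192 and 189 bp in the 3 pairs of lists. The larger of both distances had a median of 3.97% ± 2.54 of the peak's width, against 11.7% ± 1.95 for peaks of 1 to 10 kb (SD over 3 pairs of lists). The ratio divides by the width that defines the groups and was not tested. Summits lay within 100 bp of each other in 24.1%, 12.7% and 20.8% of wide pairs, against 28.6%, 26.7% and 31.3% of all pairs, and the median distance between summits was 4338, 4973 and 4772 bp. A pair of lists could thus place a wide peak within about the same limits and its summit several kb apart.

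At the 37 loci of all 3 lists, the starts and the ends of the outermost wide peaks were compared directly, without counting narrower peaks beside them. The larger of both spreads, the distance between the outermost of 3 positions, had a median of 673 bp and ranged from 31 to 110590 bp. It was at most 100 bp at 3 loci, at most 500 bp at 15 and at most 1000 bp at 19. The mean outer width of these loci had a median of 28705 bp and ranged from 10595 to 440065 bp. Of the 37 loci, 10 were at least 100 kb wide and 14 were under 20 kb.

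**Figure D2:**
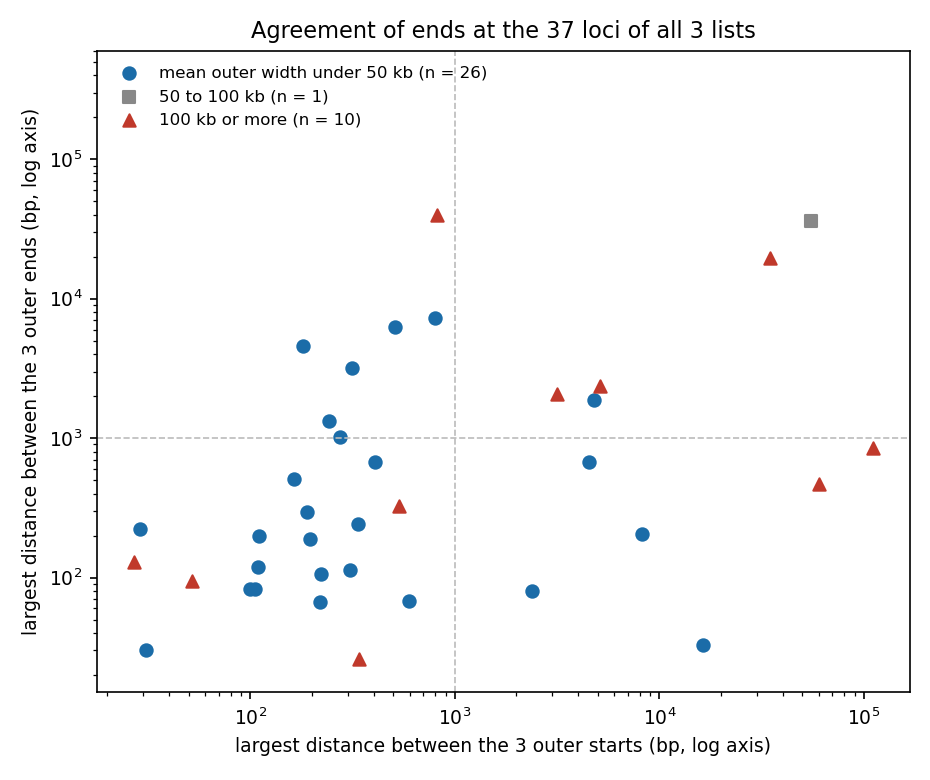
Largest distance between the outer starts (horizontal, bp, log axis) and between the outer ends (vertical, bp, log axis) of the 3 lists, with 1 point per locus and dashed lines at 1000 bp. Of the 37 loci, 19 lie within both lines, and 10 have a larger spread above 5 kb.

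The closest agreement was at a locus of chromosome 21. One wide peak spanned 27394498 to 27423197 in replicate 1, 27394467 to 27423191 in replicate 2 and 27394478 to 27423167 in replicate 3. The starts thus differed by 31 bp and the ends by 30 bp, over widths of 28700, 28725 and 28690 bp. Its summit lay 32, 41 and 3 bp from the start, and the summit pileup was 18, 20 and 18 fragments. The fold enrichment that the authors' caller gave was 3.95, 3.08 and 2.67. All 3 lists therefore had the same interval, with the summit at the same end.

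Further wide peaks of all 3 lists flanked that interval on both sides. To its left, one spanned 27328208 to 27354469 in replicate 1 and ended earlier, at 27347288 and 27347216, in replicates 2 and 3. In replicate 2 a peak of 7291 bp followed from 27347664 to 27354954, so that both peaks together covered the stretch that replicate 1 had as a single peak. A wide peak from 27354955 to 27369530 in replicate 1 had a counterpart from 27355217 to 27369506 in replicate 3, and none in replicate 2. To the right, one spanned 27462313 to 27484187 in replicate 1 and 27462582 to 27484137 in replicate 3. In replicate 2 the same stretch was divided into a wide peak of 15109 bp and 3 peaks of 1336, 2810 and 518 bp, the last of which ended at 27484145. The limits of this right-hand stretch were thus shared where the peaks between them were not, but replicate 3 continued beyond it. In replicate 3, wide peaks of 24663, 16588 and 15733 bp followed from 27484585 to 27542693, the first 447 bp beyond that stretch. No peak of the other lists overlapped them. A peak of 9161, 9930 and 9858 bp fell just under the cutoff in every list. No peak was listed between 27423197 and 27462313 in any list. Further left, replicate 1 had a wide peak of 33830 bp from 27284446 to 27318275, which only narrower peaks overlapped in both other lists.

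**Figure D3:**
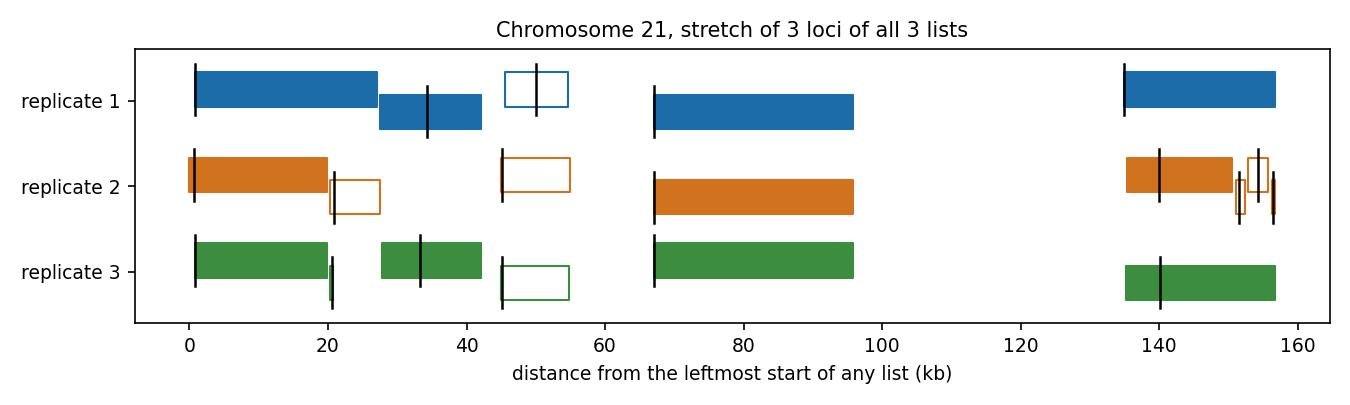
Peaks of the 3 lists at 3 neighbouring loci of chromosome 21 against the distance from the leftmost start (kb); filled bars are wide peaks, open bars are narrower peaks, black lines are summits, and bars are staggered so that neighbours can be told apart. The interval from 67.1 to 95.8 kb is a single wide peak in all 3 lists. Wide peaks of replicate 3 to the right of the last stretch are not drawn. A wide peak of replicate 1 to the left of the first stretch, and the narrower peaks that overlap it, are not drawn either.

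The next closest agreement was at a locus of chromosome 12, where the peak was far wider and its summit moved. It spanned 63225962 to 63328321, 63225977 to 63328292 and 63226014 to 63328386 in replicates 1, 2 and 3. The spread was 52 bp at the start and 94 bp at the end, over widths of 102360, 102316 and 102373 bp. The summit lay 86 bp from the start in replicate 1, 50067 bp from it in replicate 2 and 102296 bp from it in replicate 3. It was therefore near one end, in the middle and near the other end of the same interval. The summit pileups were 6, 7 and 9 fragments, with exact 95% Poisson intervals of 2.20 to 13.1, 2.81 to 14.4 and 4.12 to 17.1, which cover counting error only.

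A locus of chromosome 7 from 96324326 to 96337138 had widths of 12631, 12813 and 12782 bp with a spread of 99 bp. Its folds were 4.92, 6.43 and 8.01, with pileups of 6, 8 and 10 fragments. A locus of chromosome 1 from 225707428 to 225718098 had widths of 10483, 10658 and 10645 bp with ends within 83 bp of each other. One of chromosome 20 from 1356333 to 1372853 had widths of 16448, 16521 and 16292 bp with a spread of 120 bp. These 3 intervals were each a single peak in every list, with starts and ends that differed by far less than the width.

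Of the other loci among the 12 with the closest ends, most were also single peaks. On chromosome 8, that from 62596708 to 62624929 had a spread of 195 bp over 28081 ± 211 bp (SD, n = 3). On chromosome 5, that from 127420438 to 127448535 had 200 bp over 27917 ± 162 bp, with folds of 6.57, 8.31 and 4.74. On chromosome 14, that from 69392381 to 69440929 had 218 bp over 48383 ± 145 bp. The replicates thus had nearly equal widths at these loci, while the summit lay 36892, 168 and 16 bp from the start at the one of chromosome 14. On chromosome 13, that from 20304443 to 20315773 had starts within 29 bp and ends within 223 bp. On chromosome 22, that from 36177758 to 36205927 had a spread of 295 bp, and its summit lay 17, 17 and 18 bp from the start. The other 2 of the 12 lie on chromosomes 1 and 6 and are described with the widest and the divided loci.

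At several loci 1 end of the wide peaks agreed and the other did not. Narrower peaks filled the difference, in full or in part, at some of them but not at all. On chromosome 8 from 98657142 to 98698762, the ends lay within 33 bp, while the start of replicate 3 was 16427 bp to the left of the farthest other start. No narrower peak of replicates 1 and 2 lay in that stretch. On chromosome 19 from 34663846 to 34685443, the ends lay within 206 bp, and the start of the wide peak of replicate 3 was up to 8234 bp further left. Narrower peaks began there at 34663897 in replicate 1 and 34663856 in replicate 2, so the outer limit was shared when they are counted. On chromosome 2 from 102460716 to 102475486, the starts lay within 313 bp and the ends within 3189 bp, with the end of replicate 3 furthest right. Replicate 2 had a narrower peak of 2547 bp that ended close by, at 102475309, and replicate 1 had none. On chromosome 14 from 21680175 to 21699212, both ends of the wide peaks differed, by 4816 and 1883 bp, with summit pileups of 6, 20 and 30 fragments. A peak of 696 bp in replicate 1 ended at 21699190, near the ends of 21699212 and 21699209 in the other lists, so the right limit was shared there too.

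A locus of chromosome 20 from 32399356 to 32436215 had the same limits in all lists within 308 bp but unlike summits. Its pileups were 9, 16 and 40 fragments and its folds 7.03, 2.49 and 2.77. The list with the shallowest summit thus had the highest fold there. The expected level below a summit differs by position and list, so folds of the lists and their means are given as a description only.

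Many wide peaks had a neighbour of any width less than 1 kb away in the same list. This held for 34, 66 and 49 wide peaks, or 22.8%, 41.5% and 32.7%, against 16.8%, 26.9% and 22.5% of all peaks and 17.0%, 29.1% and 23.4% of peaks of 1 to 10 kb. The share of wide peaks was higher in each list, and the difference was not tested. The gaps of these wide peaks had a median of 523 bp. The smallest gap between any 2 neighbours was 406, 353 and 391 bp and the narrowest peak 405, 352 and 391 bp in the 3 lists. The lists thus hold neither shorter gaps nor shorter peaks than about that length, and a short gap divides what may be one interval in another list.

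A pair of loci show such a division in replicate 1. On chromosome 10, replicates 2 and 3 had 1 wide peak of 47432 and 47404 bp, spanning 28824762 to 28872193 and 28824794 to 28872197. Replicate 1 had a peak of 1668 bp from 28824978, a wide peak of 26048 bp and another of 18325 bp, with gaps of 486 and 613 bp, and the last ended at 28872117. The outer limits were thus alike when the narrow peak is counted. The pileup was 5 fragments in both wide peaks of replicate 1 and 14 and 11 in replicates 2 and 3. On chromosome 13, from 75936175 to 76054258, replicate 1 had wide peaks of 71595 and 45363 bp, 472 bp apart, where replicates 2 and 3 had 1 of 117760 and 118082 bp. The outer starts there lay within 531 bp and the outer ends within 324 bp.

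**Figure D4:**
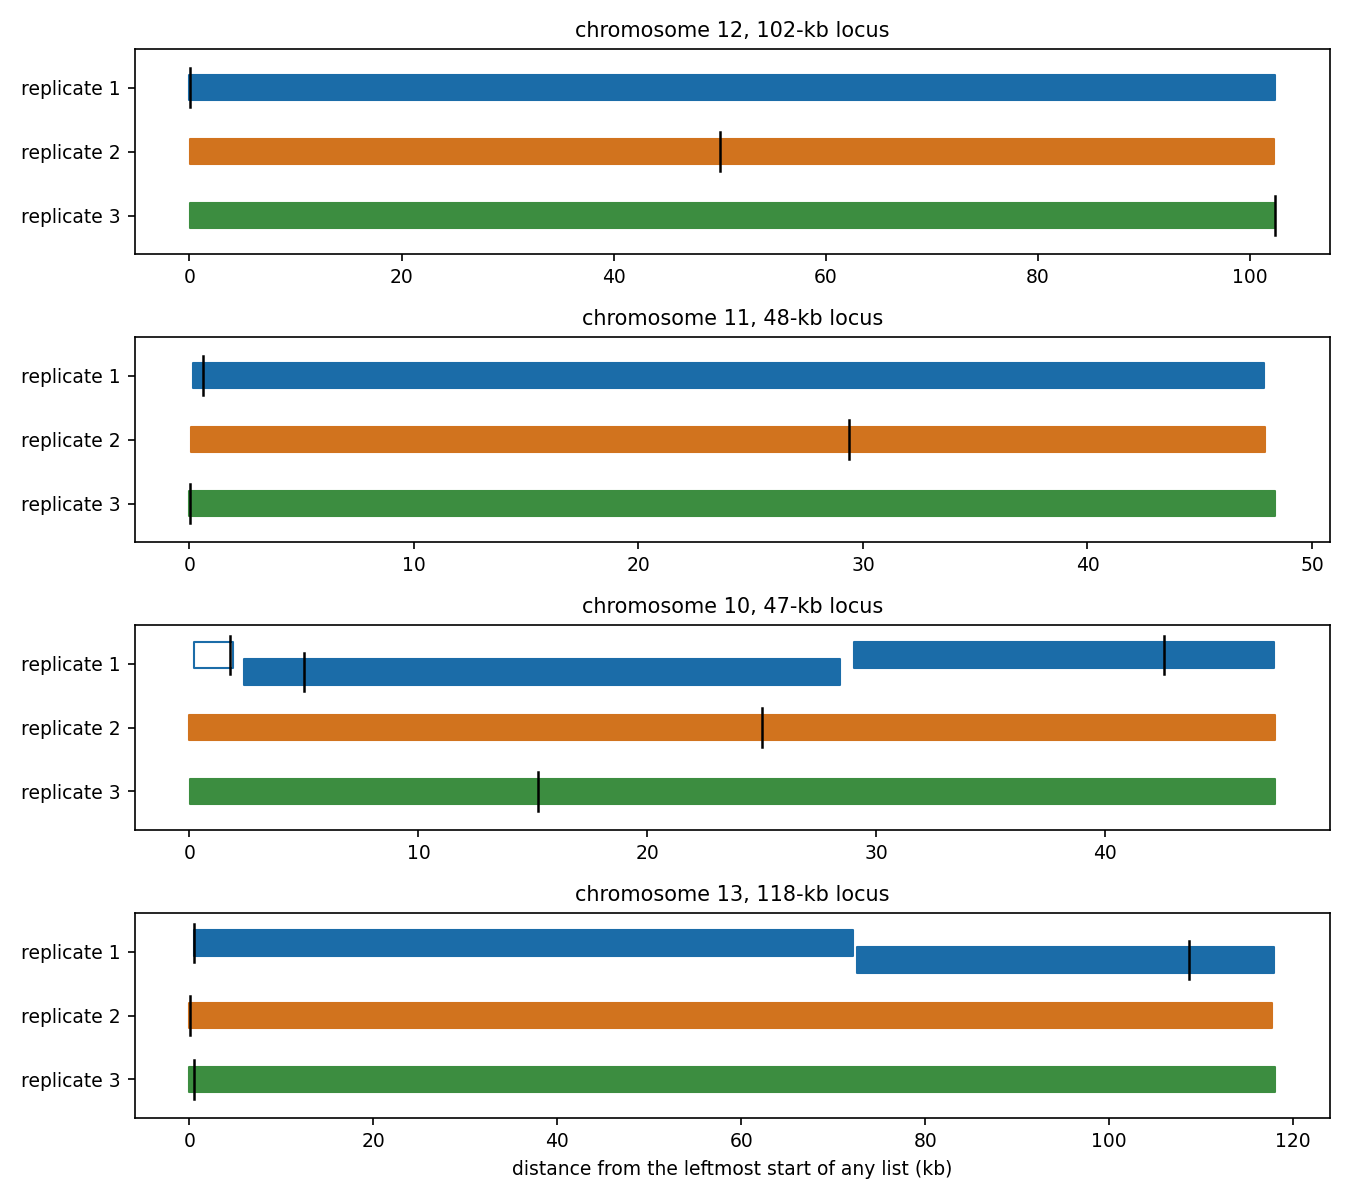
Peaks of the 3 lists at loci of chromosomes 12, 11, 10 and 13 against the distance from the leftmost start (kb), with filled bars for wide peaks, open bars for narrower peaks and black lines for summits. The locus of chromosome 11 is a single wide peak of 47698, 47810 and 48374 bp. Outer limits of the peaks drawn nearly coincide at all 4 loci. Summits differ in place at the first 3, and replicate 1 is divided at the last 2. On chromosome 11, replicate 2 had a further wide peak of 23180 bp, 643 bp beyond the locus, which is not drawn and had no counterpart in the other lists.

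A locus of chromosome 6, from 3154981 to 3202396, was a single wide peak of 47310 and 47190 bp in replicates 1 and 3, and 2 wide peaks of 20979 and 25832 bp with a gap of 383 bp in replicate 2. Its outer starts and ends agreed within 222 bp. A locus of chromosome 12 from 49528161 was divided in replicate 3 alone, into 10324 and 23229 bp with a gap of 542 bp, and was a single peak of 34577 and 34619 bp in the other lists. The divided list differed between these loci, so that division was not limited to 1 library.

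The widest locus of all 3 lists lay on chromosome 15, from 82664936 to 83125233, as 1 peak of 460298 and 460170 bp in replicates 1 and 2. The wide peaks of replicate 3 started 60098 bp further right than that of replicate 1, with a peak of 99177 bp and another of 300149 bp separated by a gap of 402 bp. A narrower peak of 4021 bp began at 82692889 in replicate 3. The summit of the single peaks lay 159543 and 159461 bp from their starts. The gap of replicate 3, between 82824210 and 82824613, falls at the same place. Pileups were 75 and 82 fragments in replicates 1 and 2, the highest of any wide peak in those lists, and 40 and 48 in the peaks of replicate 3. Folds were low beside these counts, at 3.03 and 4.96 in replicates 1 and 2 and 3.35 and 2.34 in replicate 3.

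A locus of chromosome 1, from 17067319 to 17215504, had the highest mean fold of the 37 loci and agreed within 130 bp at both ends. It was 148029, 148186 and 148032 bp wide. The fold was 39.2, 9.85 and 5.45 in replicates 1, 2 and 3, a mean of 18.2 ± 18.3 (SD, n = 3), while the summit pileup was 59, 56 and 72 fragments. The summits lay 5435, 18 and 931 bp from the start. The high mean fold thus rests on replicate 1, and the pileups did not follow it.

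A second locus of chromosome 1, from 149400383 to 149731710, was filled by 4 wide peaks each in replicates 1 and 2, and by 2 in the third list. Outer ends agreed within 26 bp and outer starts within 341 bp. Summit pileups of the best peaks were 6, 5 and 7 fragments. A division between 149450386 and 149450977 in replicate 1 had its counterpart between 149450412 and 149450973 in replicate 2, and that between 149605804 and 149606307 in replicate 1 had one between 149606138 and 149606829 in replicate 2. Replicate 3 had neither. The other divisions lay at places of their own.

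**Figure D5:**
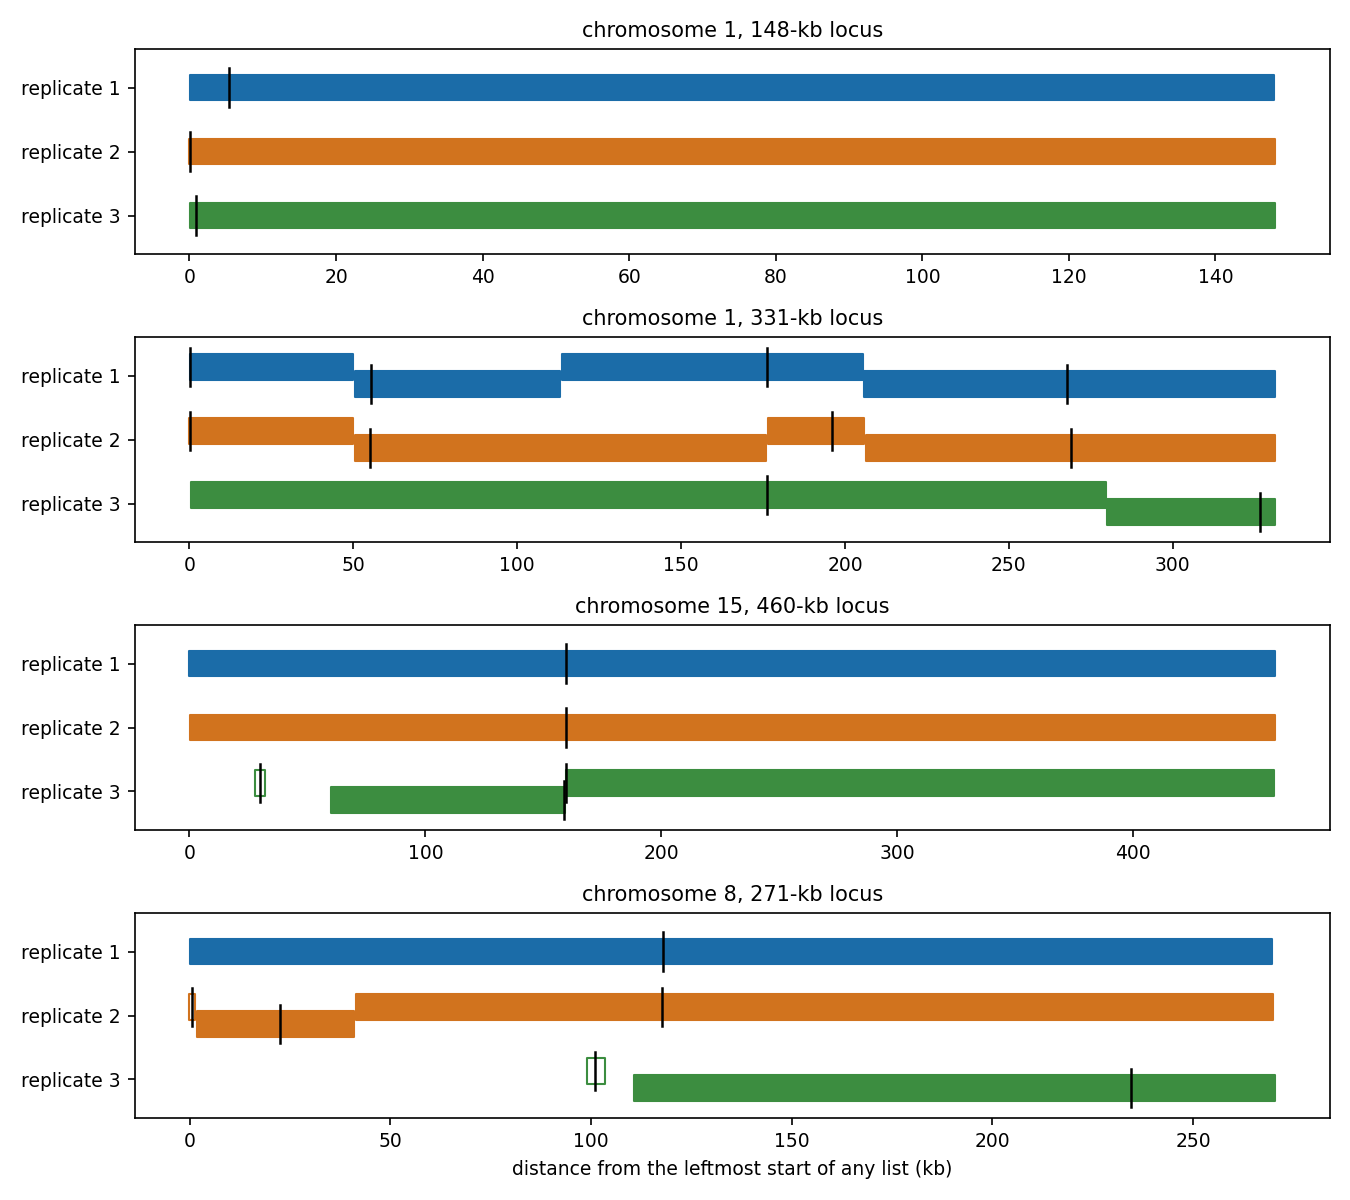
Peaks of the 3 lists at 4 loci over 140 kb wide against the distance from the leftmost start (kb), with filled bars for wide peaks, open bars for narrower peaks and black lines for summits; bars are staggered so that neighbours can be told apart. The first 2 loci share their outer limits in all 3 lists, and at the other 2 the wide peaks of replicate 3 start further right.

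The wide peaks of other very wide loci agreed less. On chromosome 7, from 72413109 to 72670964, widths were 255467, 252451 and 257856 bp, with outer limits within 5109 bp and pileups of 12, 10 and 13 fragments. A narrower peak of replicate 2 began at 72413338, close to the starts of the other lists at 72413151 and 72413109. On chromosome 8, from 145206229 to 145476759, the ends lay within 843 bp but the wide peak of replicate 3 started 110590 bp further right than that of replicate 1. A narrower peak of replicate 3 began at 145305239. The fold of the best wide peak of each list averaged 7.87 ± 1.48 (SD, n = 3) at this locus. On chromosome 15, from 34674378 to 34796003, the peaks were 118969, 118483 and 119559 bp wide, and that of replicate 2 lay furthest right at both ends, with starts within 3143 bp and ends within 2067 bp. On chromosome 16, from 29394699 to 29536934, starts agreed within 817 bp and ends within 39995 bp, with folds of 3.65, 17.9 and 13.8. Narrower peaks continued to 29509549 in replicate 1 and to 29522429 in replicate 2, short of the end of replicate 3. The locus of the scaffold 17_ctg5_hap1, an alternative sequence of chromosome 17, was 1 wide peak of 171562 and 219512 bp in replicates 1 and 2 and 4 wide peaks in replicate 3.

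A further locus of chromosome 15, from 43886402 to 43984918, had different limits at both ends. Replicates 1 and 2 started at 43886402 and 43886612, but replicate 3 started at 43941491, and the ends were 43969398, 43948771 and 43984918. Pileups were 8, 8 and 6 fragments. Whether the ends of any of these loci lie in paralogous sequence was not tested, since that needs the sequence of hg19.

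Loci with a wide peak in 2 lists had a median spread of similar size, but how closely they agreed is not directly comparable. The larger spread had a median of 700 bp, against 673 bp at the loci of all 3 lists, where 3 rather than 2 positions have to agree. The mean outer width had a median of 16653 bp, against 28705 bp at the loci of all 3 lists. Spreads were at most 100 bp at 6 of the 53 and at most 1000 bp at 29. The 5 loci that follow were chosen after their values were seen. On chromosome 1 from 43397426 to 43408732, starts differed by 10 bp and ends by 3 bp between replicates 1 and 2, over 11307 and 11294 bp. On chromosome 14 from 23044520 to 23057685, they differed by 20 and 1 bp between replicates 1 and 3. On chromosome 2 from 26438014 to 26452929, they differed by 2 and 22 bp between replicates 2 and 3. These 3 intervals, each in another pair of lists, agreed within 22 bp at both ends. On chromosome 11 from 62327956 to 62339087, pileups were 44 and 47 fragments in replicates 1 and 2, with a spread of 70 bp. On chromosome 3 from 119721107 to 119812216, widths were 91110 and 90814 bp in replicates 1 and 3 with a spread of 159 bp.

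Most wide loci were found in 1 list. At 181 of these 219 loci, which were selected for lacking a wide peak in another list, no peak of any width in another list overlapped the wide peak. By list, 58 of 149, 68 of 159 and 55 of 150 wide peaks were overlapped by no peak of either other list. The like shares over all peaks were not determined. Neither these counts nor the 219 loci of 1 list are therefore read as a trait of wide peaks. The 219 loci had a median span of 15461 bp, and 6 were at least 100 kb wide. Across the 6 ordered pairs of lists, a wide peak was compared 552 times with a list without a wide peak there. In 95 of these a narrower peak overlapped it by at least 1 bp, and could extend beyond it. In 86 of the 95 the narrower peak reached into the outermost 1000 bp at an end, at the start in 36, at the end in 20 and at both in 30, and it lay only in the interior in 9. The outermost 1000 bp at both ends together made up a median of 12.8% of the width of these wide peaks, as a mean over the 6 pairs. Narrower peaks of the other lists thus reached an end in 85.7% to 94.7% of cases, and these covered a median of 36.3% to 82.3% of the wide peak. A narrower peak that crosses a limit of the wide peak reaches an end by its position alone, so the share of 12.8% is no expected value. How often narrower peaks would reach an end elsewhere was not tested.

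The 6 deepest wide peaks without a wide counterpart lay where the other lists had narrower peaks. On chromosome 1 from 43148506 to 43158506, replicate 1 had a peak of 10001 bp with 34 fragments at the summit (95% Poisson interval 23.5 to 47.5). Replicates 2 and 3 had peaks of 9309 and 9395 bp that began at 43148508 and 43148513, with pileups of 32 and 31. The first locus was thus wide in 1 list through the cutoff. On chromosome 2 from 219104172 to 219114598, replicate 2 had 10427 bp with 34 fragments and replicate 3 had 9739 bp with 38. Replicate 1 was divided there into peaks of 5606 and 3462 bp, with 23 and 12 fragments.

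On chromosome 17 from 63533658 to 63551385, replicate 2 had a wide peak of 17728 bp with 24 fragments. Replicates 1 and 3 had pairs of peaks of 3617 and 4011 bp and of 3997 and 3495 bp within it, and the first of each pair had 20 and 22 fragments. On chromosome 7 from 134632395 to 134643055, replicate 1 had 10661 bp with 31 fragments, and replicates 2 and 3 had peaks of 8908 and 9082 bp with 30 and 25 fragments that overlapped its start. On chromosome 9 from 100767431 to 100777675, replicate 3 had 10245 bp with 24 fragments, and the first peaks of replicates 1 and 2 had 37 and 38. On chromosome 14 from 56085044 to 56096511, replicate 1 had 11468 bp with 17 fragments, and replicates 2 and 3 had peaks near its end with 26 and 25. Taking the deepest narrower peak of each other list, summits were 20 to 38 fragments at these 4 loci, and further narrower peaks there had as few as 5.

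Few fragments lay at the summit of most wide peaks. As recovered from the deposited fold and p-value, the median summit pileup was 6 fragments in every list and a lowest value of 4. It was 4 or 5 in 40.3%, 37.1% and 36.7% of wide peaks, against 42.1%, 39.3% and 42.2% of peaks of 1 to 10 kb. It was at least 10 in 20.1%, 22.6% and 22.7%, against 23.1%, 26.4% and 25.1%. The median fold was 4.22, 4.37 and 4.37 in wide peaks and 4.17, 4.16 and 3.97 in those of 1 to 10 kb. Wide peaks were thus neither deeper nor shallower by much at the summit than narrower ones, and this was not tested.

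The expected level below the summit was different. It lay within 0.5% of the lowest level of the list in 68.5%, 64.2% and 63.3% of wide peaks, against 49.7%, 42.3% and 39.6% of peaks of 1 to 10 kb and 50.5%, 42.6% and 40.1% of all peaks. The values of both groups did not overlap between lists. The summit lay in the outer 10% of the width, 5% at each end, in 39.2% ± 3.39 of wide peaks (SD, n = 3). Peaks of 1 to 10 kb had 37.1% ± 1.78, with overlapping ranges, and all peaks had 33.1%, 32.5% and 32.7%. Most such summits of wide peaks were at the low-coordinate end: 33.3% ± 4.22 of wide summits (SD, n = 3) fell in the first 5% and 5.91% ± 0.825 in the last, and peaks of 1 to 10 kb had 31.7% ± 1.48 and 5.43% ± 0.553. The unequal use of both ends was therefore common to wide and narrower peaks.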

How the data were processed

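The submitters' processing notes list FastQC, HISAT2, SAMtools, GATK and MACS2; their versions, settings and control sample: not given in the sources used here. The deposited lists give, per peak, a fold enrichment (a ratio of pileup to expected level, each plus 1) and p-values and q-values on the −log10 scale, all by the authors, 1 list per immunoprecipitate. The notes name hg38, but sequence names such as chrUn_gl000220 are those of hg19, so coordinates were taken as hg19. Read depth is unknown.

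Peaks of at least 10000 bp were joined into loci by 1 bp of overlap. Ends were compared between peaks that were each other's largest overlap, with a tolerance of 100 bp. Summit pileup was the whole number up to 400 that gave the authors' fold and −log10 p within 0.0005, found for every wide peak. The best wide peak of a list at a locus is that of highest fold. Named by the rule were the 12 loci of all 3 lists with the closest ends, the 8 widest, the 8 strongest, the 5 with the most distant ends and the 6 deepest peaks without a wide counterpart; the other loci were chosen after their values were seen. Without annotation of hg19, loci are named by position. The members and lists were chosen with earlier results of these data known. Planned results on exons, introns, genes at the ends and sequence identity of ends need hg19 references and were not run. No test was run, since width chose the members. Matching of ends and recovery of pileups were tested on simulated data. Computing used Python 3.11.15 with numpy 2.4.6, with pandas 2.3.3, with scipy 1.17.1 and with matplotlib 3.10.9.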

Additional observations from a re-analysis of the deposited data

How the results depend on the processing

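Counts follow the cutoffs by construction. With a width of at least 5 kb, peaks per list averaged 340.3 (19.0%) and loci of all 3 lists numbered 86; with at least 20 kb these were 67.3, 3.79% and 22, and 38.6% of wide peaks were overlapped by a wide peak in both other lists. With a −log10 q of at least 5 they were 32.3, 11.5%, 5 and 16.7%. Overlap by a wide peak in both other lists was 22.3% under a minimum overlap of 50% of each peak and 30.7% with chromosome X and the loci set aside kept. Both ends agreed in 1.18% of pairs within 10 bp and in 55.7% within 1000 bp, and in 14.5% to 27.6% without 1 replicate. Without 1 replicate, overlap by a wide peak in the 1 other list was 39.2% to 40.5% and shared loci numbered 53 to 58, since fewer lists then have to agree. Of 39 alternative values, 20 were labelled as moved and 19 were not, without a threshold stated here. The second label does not mean unchanged. It includes loci of all 3 lists at 44 instead of 37 with chromosome X and the loci set aside kept. It also includes agreement of both ends at 14.5% instead of 19.7% without replicate 2. The 2 counts are therefore no measure of stability. Alternatives for the 4 results that need hg19 references were not run. No paired analysis was possible because the inputs have no list among the files used. Summits of 4 to 6 fragments limit what a single wide peak shows.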

Other observations

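Wide peaks were unevenly spread over chromosomes. Chromosome 21 had the highest share among whole chromosomes, with 19 of its 82 peaks (23.2%) at least 10 kb wide. Counts were 7, 4 and 8 in replicates 1, 2 and 3, and 9 of these 19 lay in its 3 loci of all lists. Most of the 19 lay in a single stretch from 27284446 to 27542693, so the share rests largely on that stretch. Chromosome 19 had the lowest, with 13 of 560 (2.32%), and chromosome 17 had 15 of 310 (4.84%). Chromosome 1 held the most, with 68 in 42 loci. These shares were ranked after the values were seen and were not tested.

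The widest peaks found in 1 list measured 455712 bp on chromosome 1 from 142691530, 276943 bp on chromosome 7 from 76189913 and 240150 bp on chromosome 17 from 34500211. Further ones of 180180 bp lay on chromosome 8 from 12079686, of 116035 bp on chromosome 10 from 34806087 and of 108772 bp on chromosome 9 from 80537301.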
